A study of Mus musculus with 3 samples.

Results

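The 10 genes described here encode G protein-coupled receptors for metabolites: Ffar1, Ffar2, Ffar3 and Ffar4 (free fatty acids), Gpr119 (fatty acid amides and monoacylglycerols), Hcar1 and Hcar2 (hydroxycarboxylic acids), Gpr35 (kynurenate among other ligands), Gpbar1 (bile acids) and Sucnr1 (succinate). They were chosen by ligand, and all 10 were found among the 24346 gene symbols of the deposited tables. The level of a gene is the sum of its isoforms in FPKM, the fragments of an isoform scaled to its length and to the mapped fragments of the library. The tissue was distal colon of wild-type mice (labelled JAX in the titles) aged 8 weeks, at steady state with no treatment. It was rinsed and frozen whole, and its polyadenylated RNA was sequenced. All 3 libraries, labelled as replicates 1, 2 and 3, carry these same labels, so there is 1 group and no contrast between conditions. A whole piece of colon holds epithelium, immune cells, nerve and muscle, and in such RNA fewer cells of a type and less RNA per cell cannot be told apart.

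Receptors of this class sit in the cell membrane and let a cell respond to what microbes, the diet or neighbouring cells release. Short-chain fatty acids such as acetate, propionate and butyrate, made by colonic bacteria from fibre, act on Ffar2 and Ffar3, whereas Ffar1 and Ffar4 bind long-chain fatty acids. In the gut many of these receptors are known from enteroendocrine cells, where they drive hormone release, and others from immune cells, enterocytes, tuft cells or enteric nerves. Each signals through G proteins of the inhibitory (Gi), stimulatory (Gs), Gq or G12/13 class.

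Windows before 1 start each of Ffar4, Gpr35 and Sucnr1 and before 2 starts of Ffar2 are shown: the 3 highest receptors and the receptor without a single fragment. The isoforms of Ffar2 and Gpr35 differ in where they begin, and their levels are given start by start further on. Each is the 250 bases before a start, 5′ to 3′ on the gene's strand, from RefSeq on GRCm38.p6. Capitals mark a match, on either strand, to the TATA box TATAAA, the CCAAT box CCAAT, the GC box GGGCGG or the HNF4 site CAAAGTCCA.

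Ffar4, chr19:38096829-38097078, plus strand: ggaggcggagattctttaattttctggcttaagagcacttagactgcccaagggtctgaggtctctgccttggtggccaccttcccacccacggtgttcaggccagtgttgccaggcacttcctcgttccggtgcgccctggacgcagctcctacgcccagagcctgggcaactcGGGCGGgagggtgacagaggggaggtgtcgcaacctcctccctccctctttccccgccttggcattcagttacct
Gpr35, start of NM_001104529, chr1:92972869-92973118, plus strand: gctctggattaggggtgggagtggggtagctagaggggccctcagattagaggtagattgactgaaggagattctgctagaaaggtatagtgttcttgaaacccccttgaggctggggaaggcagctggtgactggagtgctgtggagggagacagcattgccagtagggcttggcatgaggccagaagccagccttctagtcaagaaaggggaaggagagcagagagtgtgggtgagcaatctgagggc
Ffar2, start of NM_001168510, chr7:30821193-30821442, minus strand: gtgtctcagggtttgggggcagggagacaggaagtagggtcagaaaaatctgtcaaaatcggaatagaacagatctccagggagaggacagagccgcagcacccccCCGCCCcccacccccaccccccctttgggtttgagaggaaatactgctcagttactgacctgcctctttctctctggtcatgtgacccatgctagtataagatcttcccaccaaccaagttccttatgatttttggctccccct
Ffar2, start of NM_146187, chr7:30823776-30824025, minus strand: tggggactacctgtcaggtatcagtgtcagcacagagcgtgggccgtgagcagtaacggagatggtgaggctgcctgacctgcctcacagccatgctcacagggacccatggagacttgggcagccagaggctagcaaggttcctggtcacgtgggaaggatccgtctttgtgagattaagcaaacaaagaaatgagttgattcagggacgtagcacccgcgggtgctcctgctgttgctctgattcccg
Sucnr1, chr3:60081619-60081868, plus strand: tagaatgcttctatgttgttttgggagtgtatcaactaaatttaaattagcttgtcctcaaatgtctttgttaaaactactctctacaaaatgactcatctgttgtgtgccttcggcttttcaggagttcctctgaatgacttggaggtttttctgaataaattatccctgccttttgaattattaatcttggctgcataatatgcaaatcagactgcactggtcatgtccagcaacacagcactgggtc

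The Ffar4 window and that of the Ffar2 start NM_001168510 each held 1 GC box, 75 and 144 bases before the start, a motif present in 32.7% of the 32851 windows of this length in the table. None of the 5 windows shown held a TATA box (12.4% of all windows), a CCAAT box (33.8%) or an HNF4 site (0.384%). A further Ffar2 window, before the start of NM_001168511 at 30821139, held a CCAAT box 37 bases before that start, and the GC box above lies 197 bases before it. CG pairs numbered 11 before Ffar4, 0 before this Gpr35 start, 3 and 9 before the Ffar2 starts and 1 before Sucnr1, against a median of 6 over all windows. These matches describe the letters of the windows and were not tied to any level. Windows were found for 9 of the 10 receptors, with none for Hcar2 and none for the Gpr35 isoform NM_001271766, which had the highest mean of the 3.

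The depth, recovered from the confidence bounds that accompany each FPKM, was 3.78e+06, 3.79e+06 and 1.24e+06 mapped fragments in replicates 1, 2 and 3, or 8.81e+06 in all. The names of the deposited files carry the same index and lane and differ in a last running number, and nothing says that the libraries came from separate animals. Single-isoform genes with means from 1 FPKM upward numbered 8771, of which 7 (0.0798%) differed between the files by a chi-square test with Benjamini-Hochberg adjustment, and 439 had an unadjusted p under 0.05. The median ratio of the variance between files to the sampling variance was 0.678, where sampling noise alone gives 0.693. The libraries were therefore counted as 1 sample, and an SD below is the measurement error of that sample, with no estimate of the spread between animals. Ffar4, the only receptor among the genes tested, was not called. All 8 genes listed for colonocytes had means between 70.7 and 817 FPKM, with the carbonic anhydrase Car4 highest. The list was chosen with earlier results of these data known, and no other tissue was compared. These values therefore do not test the tissue label. Among 26 genes that all cells use, the lowest, Tbp, stood at 8.60 FPKM, so none of these was listed at 0.

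Ffar4 and Gpr35 stood far above the other receptors, at mean levels of 12.4 and 6.68 FPKM, and together made up 83.1% of the summed FPKM of the 10. Ffar2 (1.42 FPKM) and Hcar1 (0.935 FPKM) followed, then Ffar3, Gpr119 and Hcar2 between 0.346 and 0.485 FPKM, and last Ffar1 and Gpbar1, each seen as 1 fragment. Sucnr1 was listed at 0 in every file. A mean of 1 FPKM or more was reached by 3 of the 10 receptors, against 51.9% of all 24346 symbols, and 1 of the 10 was listed at 0 in every file, against 29.9% of all symbols. The median of the receptors was 0.474 FPKM and that of all symbols 1.25 FPKM. Ffar4 stood above 80.0% of all symbols and Gpr35 above 70.1% of all symbols.

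**Figure D1:**
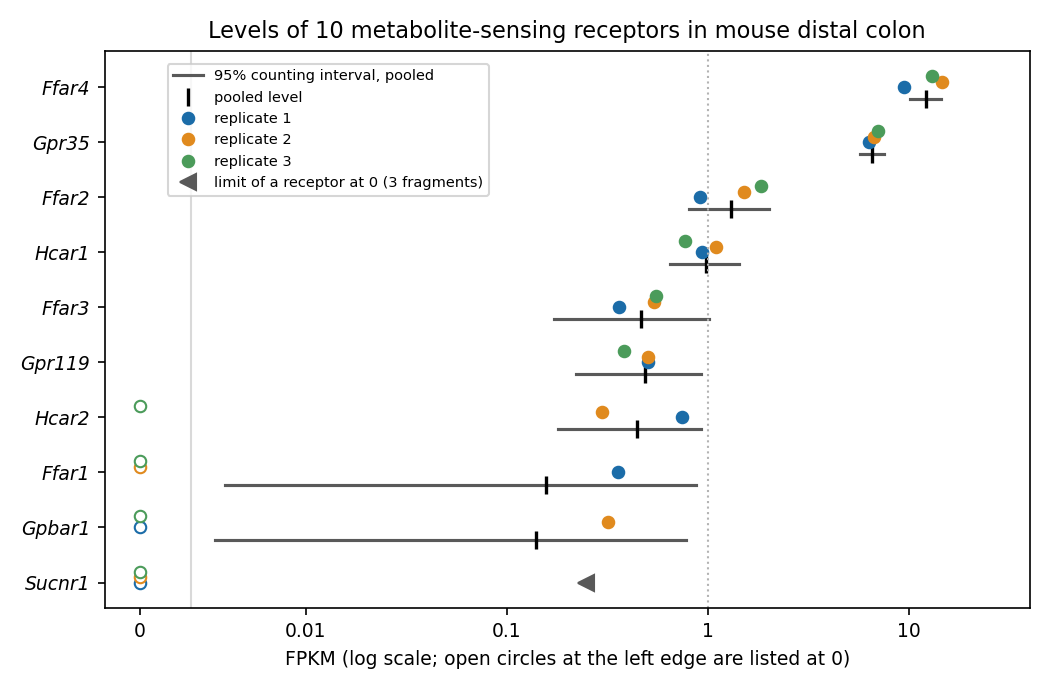
Level of each receptor in FPKM (log scale), with 1 circle per replicate, the level pooled over the 3 files as a tick and its 95% counting interval as a bar; open circles at the left edge are values of 0 and the arrowhead is the limit of 0.247 FPKM for Sucnr1. The circles of Ffar4 and Gpr35 lie at or above 6.31 FPKM, while no circle of another receptor passes 1.85 FPKM.

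The order was read from ratios of fragments pooled over the files, each with an unadjusted 95% interval (Clopper-Pearson on the split of fragments between 2 genes) that covers counting error only. Of the 36 pairs of receptors with fragments, 22 had an interval that left out 1. Among the 8 neighbouring pairs in the order, only Ffar4 over Gpr35 (ratio 1.85, interval 1.48 to 2.31) and Gpr35 over Ffar2 (5.02, 3.20 to 8.31) did. Ffar2 was not separated from Hcar1 (1.33, 0.714 to 2.45), nor Hcar1 from Ffar3 (2.11, 0.852 to 6.24). Ffar3, Gpr119 and Hcar2 also could not be put in order: Ffar3 over Gpr119 had a ratio of 0.961 (0.281 to 3.02), on the other side of 1 from their means, and Gpr119 over Hcar2 one of 1.09 (0.360 to 3.43).

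**Figure D2:**
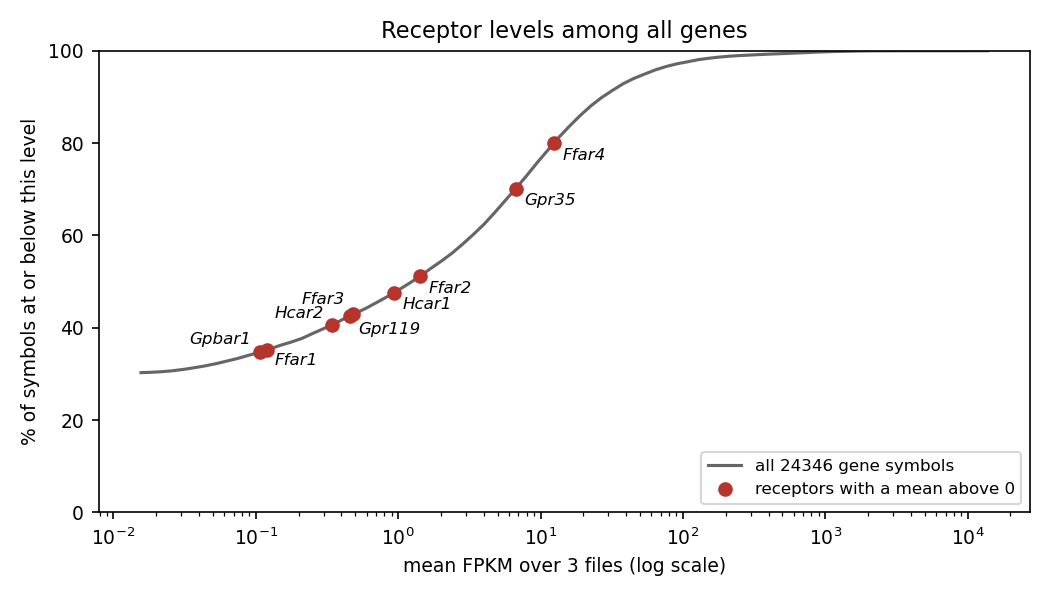
Share of all 24346 gene symbols at or below a given mean FPKM (log scale), with the 9 receptors that have a mean above 0 marked on the curve. Ffar4 and Gpr35 lie on the upper part of the curve, and Ffar1 and Gpbar1 near its foot, just above the 29.9% of symbols listed at 0.

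**Figure D3:**
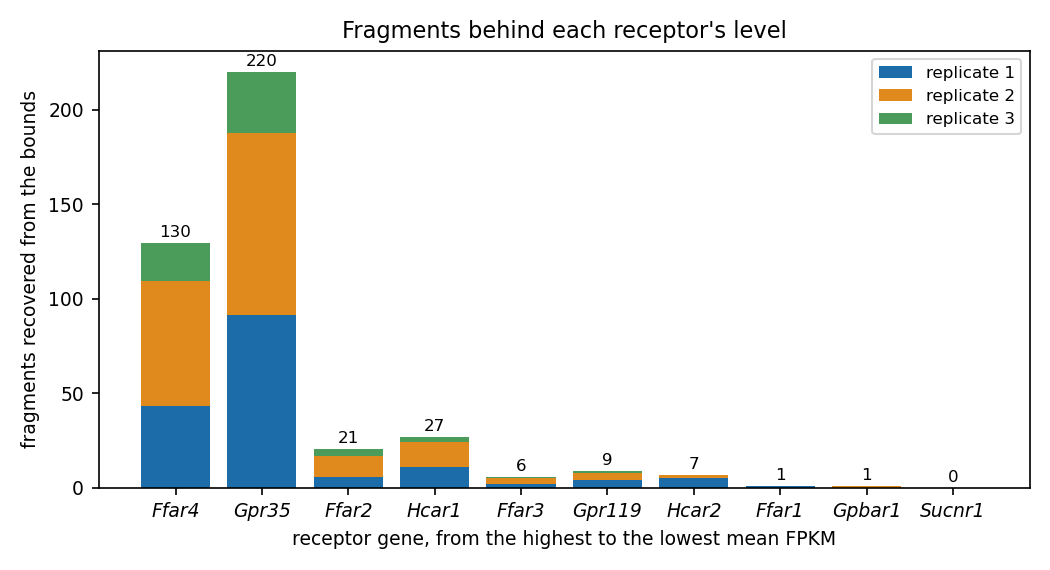
Fragments recovered for each receptor, stacked by replicate, with the total over the 3 files above each bar. Gpr35, whose isoforms are 3936 to 4233 bases long, has 220 fragments and Ffar4, at 1393 bases, has 130, and no other receptor has more than 27.

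Of the sensors of long-chain fatty acids and their derivatives, Ffar4 was the only one at more than a trace. Ffar4, also called GPR120, binds long-chain fatty acids including omega-3 species and is known from enteroendocrine cells, macrophages and adipocytes. It stood at 9.46, 14.6 and 13.1 FPKM in replicates 1, 2 and 3, a mean of 12.4 ± 2.65 FPKM (SD over 3 files), from 43.4, 66.1 and 20.0 fragments. Replicate 1 was the lowest, and the pooled level was 12.2 FPKM with a 95% Poisson interval of 10.2 to 14.5 FPKM. The gene lies on chromosome 19 from 38097079 to 38114263, plus strand, and its coding sequence spans 3 exons, whereas 8 of the 10 receptors are coded in 1 exon.

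Ffar1 (GPR40), a Gq-coupled receptor of long-chain fatty acids best known from pancreatic beta cells and enteroendocrine cells, was listed at 0.357 FPKM in replicate 1 and at 0 in replicates 2 and 3. This is 1 fragment over the 3 files, with a pooled level of 0.157 FPKM and an interval of 0.00397 to 0.874 FPKM. Ffar4 was 77.6-fold higher than Ffar1, with an interval of 13.7 to 3090. The isoform that the authors used for Ffar1 (chromosome 7, 30860568 to 30861470, minus strand) is 903 bases long and holds the coding sequence and its stop codon alone, whereas GENCODE M21 draws an exon of 4175 bases, so fragments from the rest of that exon are not in the value.

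Gpr119 responds to oleoylethanolamide and 2-monoacylglycerols through Gs and is known from hormone-releasing L cells. Its 3 values were close, at 0.502, 0.502 and 0.382 FPKM, a mean of 0.462 ± 0.0695 FPKM from 4, 4 and 1 fragments (chromosome X, 48667979 to 48674478). The pooled interval was 0.222 to 0.921 FPKM, and each of the 3 values also lay under 1 FPKM. All 10 genes listed for the handling of long-chain fatty acids and monoacylglycerols reached 1 FPKM, with a median of 8.98 FPKM. Among them Mgll, which cleaves 2-monoacylglycerols, stood at 10.1 ± 0.713 FPKM, Napepld, which makes N-acylethanolamines, at 5.17 ± 0.385 FPKM, and Faah, which breaks them down, at 5.02 ± 0.0402 FPKM.

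Enteroendocrine cells, in which Ffar1, Ffar4 and Gpr119 are known, were marked by hormone genes that ran from well above the receptors to their level or below. Of 12 enteroendocrine genes, 10 reached 1 FPKM, with the peptide YY gene Pyy at 231 ± 13.7 FPKM, Insl5 at 115 ± 13.9 FPKM, the glucagon-like peptide precursor Gcg at 28.3 ± 3.02 FPKM and somatostatin (Sst) at 25.8 ± 1.69 FPKM. The hormone genes Sct at 4.74 FPKM, Nts at 1.57 FPKM, Gip at 0.364 FPKM and Cck at 0.168 FPKM lay below Ffar4. The summed level of the 12 genes ran between 456 and 489 FPKM over the files. How much of any receptor's level came from these cells was not tested.

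Of the short-chain fatty acid receptors, Ffar2 stood above Ffar3. Ffar2, or GPR43, couples to Gi and Gq and is known from enteroendocrine cells and leukocytes, and it was measured at 0.910, 1.51 and 1.85 FPKM in replicates 1, 2 and 3 (mean 1.42 ± 0.474 FPKM). Replicate 1 alone lay under 1 FPKM. About 5.89, 10.9 and 3.93 fragments stand behind these values, and the pooled level was 1.31 FPKM (0.806 to 2.01).

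Ffar3, or GPR41, couples to Gi and is known from enteroendocrine cells and from sympathetic and enteric neurons. It was measured at 0.362, 0.543 and 0.550 FPKM, a mean of 0.485 ± 0.107 FPKM, from 1.99, 3.00 and 1.00 fragments. All 3 values of Ffar3 lay below the lowest of Ffar2. Ffar2 exceeded Ffar3 by 2.81-fold, with an interval of 1.09 to 8.51.

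The genes Ffar2, Ffar3 and Ffar1 lie in this order on chromosome 7, all on the minus strand. Ffar2 spans 30818357 to 30823775 in the authors' tables and Ffar3 30854330 to 30856178. In GENCODE M21, 30554 bases separate Ffar2 from Ffar3 and 1211 bases separate Ffar3 from Ffar1. Their mean levels were 1.42 FPKM for Ffar2, 0.485 FPKM for Ffar3 and 0.119 FPKM for Ffar1. None of the 10 receptors shared a stretch of 100 bases or longer, at an identity from 97% upward, with a transcript of another gene.

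Ffar2 has 5 isoforms that end at the same base and begin at different ones, with the coding sequence in 1 exon. NM_001168510, whose start is at 30821192, held 88.2%, 44.2% and 99.998% of the Ffar2 FPKM in replicates 1, 2 and 3. NM_146187, whose start lies farther upstream at 30823775, held 48.45% in replicate 2 and next to nothing in the others. NM_001168511 held 11.8%, 7.397% and 0.00159%. With 3.93 to 10.9 fragments in a file, no isoform share of Ffar2 is firm.

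**Figure D4:**
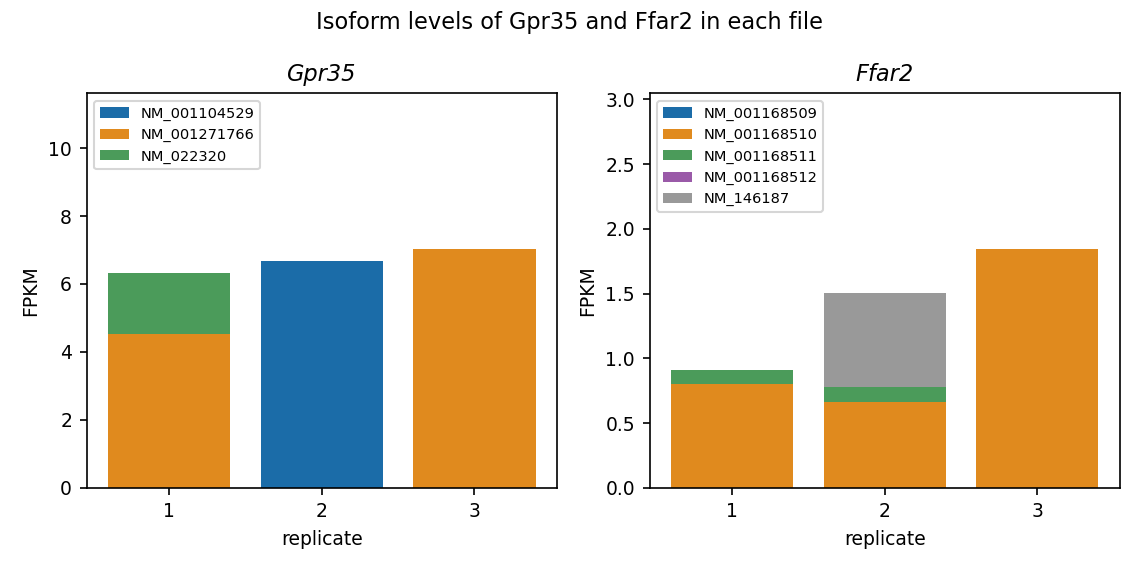
FPKM of each RefSeq isoform of Gpr35 (left) and Ffar2 (right) in each replicate, stacked so that the height of a bar is the gene's level; isoforms near 0 are not visible. The bars of Gpr35 are of like height, between 6.31 and 7.03 FPKM, while the isoform that fills them changes from file to file.

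Some carriers of the same short-chain acids stood much higher than the receptors. The monocarboxylate transporter Slc16a1 and the sodium-coupled Slc5a8 were at 99.0 ± 2.03 and 85.4 ± 1.32 FPKM, and Bsg, the chaperone of the Slc16 carriers, at 327 ± 17.5 FPKM. Of the 7 genes listed, 5 reached 1 FPKM, and Slc5a12 (0.0722 FPKM) and Slc16a4 (0.174 FPKM) did not. Of 8 enteric neuron genes, given here because Ffar3 is known from such neurons, 7 reached 1 FPKM, with the neuropeptide Vip highest at 35.97 ± 1.13 FPKM and their sum between 67.5 and 68.7 FPKM over the files.

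Of the hydroxycarboxylic acid receptors, Hcar1 was seen in every file and Hcar2 in 2 of 3. Hcar1, or GPR81, is a Gi-coupled lactate receptor best known from adipocytes, where it restrains lipolysis. It was measured at 0.932, 1.10 and 0.773 FPKM in replicates 1, 2 and 3, a mean of 0.935 ± 0.164 FPKM, from 11, 13 and 3 fragments. Replicate 2 alone passed 1 FPKM, and the pooled level was 0.982 FPKM (0.647 to 1.43).

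Hcar2, or GPR109A, is the Gi-coupled receptor of niacin and of the ketone body beta-hydroxybutyrate, and butyrate also activates it. Among the receptors with more than 1 fragment its values spread most for their size, at 0.741, 0.296 and 0 FPKM, a mean of 0.346 ± 0.373 FPKM, from 5, 1.99 and 0 fragments. The pooled level was 0.447 FPKM (0.180 to 0.921), and the ratio of Hcar1 to Hcar2 was 2.198 with an interval of 0.933 to 5.98. The neighbours Hcar2 (chromosome 5, 123863570 to 123865516) and Hcar1 (123876736 to 123880020), both on the minus strand, are 11236 bases apart in GENCODE M21. That interval includes 1, so their levels were not told apart.

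Genes of lactate and ketone body metabolism differed widely in level. Ldha, the lactate dehydrogenase subunit that favours lactate, stood at 575 ± 2.65 FPKM, Ldhb at 9.52 ± 2.14 FPKM and Ldhd at 1.42 ± 0.460 FPKM. The testis form Ldhc had no fragment (limit 0.305 FPKM). Bdh1, which interconverts acetoacetate and beta-hydroxybutyrate, stood at 33.3 ± 0.630 FPKM.

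Fat tissue, macrophages and neutrophils, from which Hcar1 or Hcar2 are known, differed in how well their genes were seen. Of 6 adipocyte genes, 1 reached 1 FPKM, Cfd (complement factor D) at 1.74 ± 0.595 FPKM. The hormone Adipoq stood at 0.416 ± 0.382 FPKM, Lep had no fragment (limit 0.111 FPKM), and the sum of the 6 ran between 1.81 and 4.01 FPKM. Of 7 neutrophil genes with values, 5 were listed at 0 and none reached 1 FPKM. Among those at 0, S100a8 and S100a9 had limits of 1.71 and 1.04 FPKM, above that level. All 8 macrophage genes reached 1 FPKM, Lyz2 highest at 125 ± 4.26 FPKM. The part of these cells in the level of either receptor was not tested.

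Gpr35 was the steadiest of the receptors and rested on the most fragments. It couples to Gi and G13, responds to kynurenate, a product of tryptophan breakdown, and is known from intestinal epithelium and immune cells. It was measured at 6.31, 6.69 and 7.03 FPKM in replicates 1, 2 and 3, a mean of 6.68 ± 0.363 FPKM, from about 91.2, 96.3 and 32.7 fragments. The pooled level was 6.57 FPKM (5.73 to 7.50), and every value lay below the lowest of Ffar4.

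Its 3 isoforms (chromosome 1, 92973119 to 92986391, plus strand) end at the same base and begin at different ones. The FPKM assigned to each isoform changed from file to file. NM_001271766, whose start is at 92975347, held 71.7% in replicate 1, 0.0436% in replicate 2 and 99.9% in replicate 3. NM_001104529, which begins at 92973119, held 0.0425%, 99.956% and 0.115%, and NM_022320, which begins at 92978903, held 28.3% in replicate 1 and next to nothing in the others. The sum over isoforms therefore was the stable quantity, and no start of Gpr35 held the highest share in all files. As the files were counted as 1 sample, no isoform share of Gpr35 is firm.

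Enzymes on the way to kynurenate ranged from no fragment to 39.8 FPKM. Of 11 genes of the kynurenine pathway with values, 7 reached 1 FPKM. Ido1, which opens the pathway, stood at 8.91 ± 1.76 FPKM and Tdo2, the enzyme best known from liver for the same step, at 1.63 ± 0.493 FPKM. Among the aminotransferases that form kynurenate, Got2 was at 39.8 ± 2.90 FPKM, Ccbl1 at 15.3 ± 2.95 FPKM and Ccbl2 at 4.02 ± 0.343 FPKM, while Aadat had no fragment (limit 0.215 FPKM). Kmo and Kynu, on the branch that leads away from kynurenate, stood at 0.643 and 0.246 FPKM.

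Gpbar1 and Sucnr1 were at the edge of detection. Gpbar1, or TGR5, is the Gs-coupled membrane receptor of bile acids, known from enteroendocrine cells and macrophages. It was listed at 0 in replicates 1 and 3 and at 0.320 FPKM in replicate 2, which is 1 fragment and a pooled level of 0.140 FPKM (0.00356 to 0.782). The authors' isoform of Gpbar1 (chromosome 1, 74278600 to 74279589, plus strand) is 990 bases long and holds the coding sequence and its stop codon.

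Sucnr1, or GPR91, is the receptor of succinate, known in the mouse small intestine from tuft cells and elsewhere from macrophages and kidney. It was listed at 0 in all 3 files (chromosome 3, 60081869 to 60087566, plus strand), and 3 fragments over the files together would have made 0.247 FPKM. This limit lies above the pooled levels of Ffar1 and Gpbar1, so Sucnr1 cannot be placed below them. With the lower end of its own interval set against the limit, Ffar4 was at least 41.2-fold higher than Sucnr1, Gpr35 at least 23.2-fold, Ffar2 at least 3.26-fold and Hcar1 at least 2.62-fold. For Ffar3, Gpr119 and Hcar2 the lower end lay under the limit.

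The genes of bile acid handling ranged from about the level of Gpbar1 to far above it. The nuclear receptors that also bind bile acids were higher, with Vdr at 76.9 ± 2.27 FPKM, Nr1i2 at 27.1 ± 2.71 FPKM and Nr1h4 at 17.5 ± 0.944 FPKM. Of the 9 genes listed, 7 reached 1 FPKM. The hormone gene Fgf15 was lowest of these, at 0, 0.161 and 0 FPKM in replicates 1, 2 and 3. Gpbar1 rests on 1 fragment with an interval of 0.00356 to 0.782 FPKM, so Fgf15 and Gpbar1 were not told apart. The binding protein Fabp6 stood at 95.6 ± 5.85 FPKM and the exporter subunit Slc51b at 11.5 ± 3.49 FPKM, while the apical importer Slc10a2 was at 1.26, 0.541 and 0 FPKM in replicates 1, 2 and 3.

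For succinate, 9 of 11 carriers and enzymes reached 1 FPKM, with a median of 66.4 FPKM. The succinate dehydrogenase subunits Sdha, Sdhb, Sdhc and Sdhd lay between 107 and 170 FPKM and the dicarboxylate carrier Slc13a2 at 12.9 ± 2.59 FPKM. Of 10 tuft cell genes, 4 reached 1 FPKM. Hpgds was highest at 4.26 ± 0.485 FPKM, and the defining transcription factor Pou2f3 stood at 0.564 ± 0.197 FPKM. Trpm5, Plcb2 and Gnat3 were also under 1 FPKM, at 0.355, 0.378 and 0.440 FPKM. Il25 (limit 0.391 FPKM) and Gng13 (limit 1.54 FPKM) had no fragment. The sum of the 10 genes ran between 13.2 and 17.2 FPKM over the files, and how much of it came from tuft cells was not tested.

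**Figure D5:**
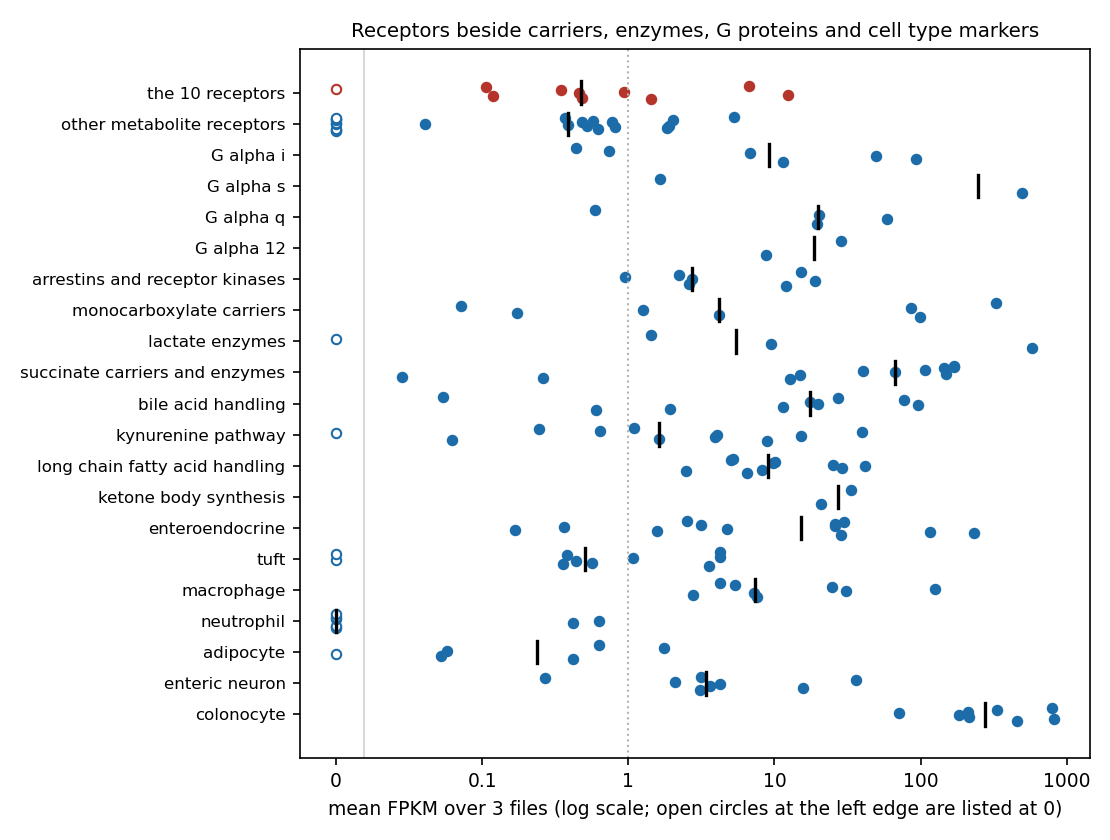
Mean FPKM (log scale) of the 10 receptors and of the genes of each list, 1 circle per gene, with the median of each list as a vertical bar and values of 0 as open circles at the left edge. The receptors have a median of 0.474 FPKM, near the 0.386 FPKM of the other metabolite receptors, while the medians of the G protein lists lie between 9.11 and 247 FPKM.

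The G proteins through which these receptors act were present in every class. Gnas, the stimulatory subunit used by Gpbar1 and Gpr119, stood at 493 ± 8.82 FPKM. The inhibitory subunits Gnai2, Gnai3 and Gnai1 were at 93.1 ± 1.13, 49.7 ± 3.84 and 11.4 ± 2.55 FPKM, and the Gq class at 58.6 ± 3.57 FPKM for Gna11, 20.2 ± 1.01 FPKM for Gna14 and 19.7 ± 1.70 FPKM for Gnaq. Gna13 was at 28.3 ± 1.34 FPKM and Gna12 at 8.73 ± 1.93 FPKM.

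Gnaz, Gnat3 and Gna15 were below 1 FPKM. Gnaz stood at 0.740 ± 0.292 FPKM, the taste and tuft cell subunit Gnat3 at 0.440 ± 0.308 FPKM and the blood cell subunit Gna15 at 0.592 ± 0.262 FPKM. Of the arrestins, which end signalling at such receptors, Arrb1 stood at 11.9 ± 0.760 FPKM and Arrb2 at 2.62 ± 0.714 FPKM. Of the 7 arrestin and receptor kinase genes with values, 6 reached 1 FPKM, and the kinase Adrbk1 was highest at 18.9 ± 0.741 FPKM.

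A wider list of 21 other receptors for metabolites gave 4 at 1 FPKM or more and 8 listed at 0, against 51.9% and 29.9% of all symbols. P2ry14, a receptor of UDP-sugars, was highest at 5.33 ± 0.844 FPKM, under Gpr35. S1pr2, which binds sphingosine-1-phosphate and conjugated bile acids, stood at 2.01 ± 0.644 FPKM. Olfr78, an odorant-type receptor that responds to acetate and propionate, was at 2.04, 2.37 and 1.31 FPKM in replicates 1, 2 and 3 (mean 1.91 ± 0.547 FPKM), a mean above that of Ffar2, while the ranges of their values overlapped. The proton sensor Gpr65 stood at 1.83 ± 0.546 FPKM.

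Among those listed at 0 were Gpr84, a sensor of medium-chain fatty acids (limit 0.251 FPKM), Oxgr1, the receptor of 2-oxoglutarate (limit 0.0962 FPKM), the adenosine receptor Adora2b (limit 0.206 FPKM) and Gpr31b (limit 0.444 FPKM). The amino acid sensor Gprc6a, the tryptophan receptor Gpr142 and the taste receptors Tas1r1 and Tas1r2 made up the rest. The limit of Oxgr1 lies below the pooled level of every receptor of the 10 with a fragment, while that of Gpr31b does not. The intervals of Ffar1 and Gpbar1, each from 1 fragment, begin at 0.00397 and 0.00356 FPKM, under the limit of Oxgr1. Oxgr1 therefore cannot be placed below these receptors.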

How the data were processed

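Isoform tables of 3 libraries of distal colon were used, 1 per library. FPKM and their 95% bounds were deposited by the authors, per the file headers, which carry Cufflinks column names; the read coverage signal that the authors also deposited was not used. The submitters' processing notes list Cufflinks 2.2.1 beside Bowtie2 2.3.4.3 and TopHat2 2.1.1. How strand and multi-mapped reads were handled is not stated there. The notes name GRCm39, but 7 of the 10 receptors have both ends exactly as in RefSeq on GRCm38.p6, and Ffar2 and Gpr35 share 1 end with its gene spans; positions are printed as GRCm38, counted from 1.

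FPKM were summed per gene symbol. Depth was recovered by reading the upper bound less the FPKM as 2 standard errors; in single-isoform genes over 800 bases with up to 30 fragments, 64.1%, 64.2% and 64.3% of values in replicates 1, 2 and 3 were within 0.01 of a whole fragment, and a Theil-Sen line through these against length gave the mapped fragments and a length of 192 to 195 bases to take off. Intervals are 95% (Poisson, or Clopper-Pearson for ratios), limits are 3 fragments over the 3 files, and both cover counting error only. The test between files was tested on simulated data. The members and gene lists were chosen with earlier results of these data known; the 26 genes that all cells use and the promoter motifs were chosen after seeing the files. Every receptor and any gene of the lists could be named, and of the Gpr-numbered symbols the 3 highest. Grk2, Grk3, Kyat1 and Kyat3 appear under their older symbols, and no value was found under Ly6g. A gene of the lists is not reported here. Copies were sought with BLAST+ 2.17.0 in GENCODE M21 transcripts. Alternatives were the highest isoform, fragments read at the longest isoform (added after seeing the files), rescaling each file to a common sum, depth weights, other thresholds and leaving out each replicate. Computation used SciPy 1.17.1, pandas 2.3.3 and numpy 2.4.6 under Python 3.11.15, and figures matplotlib 3.10.9.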

Additional observations from a re-analysis of the deposited data

How the results depend on the processing

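The depth limits every statement on the receptors below Hcar1, which rest on 0 to 9 fragments. The count of neighbouring pairs told apart was 2 under every alternative, with Ffar4, Gpr35, Ffar2 and Hcar1 in the first 4 places. Depth weights use the same fragments, and rescaling leaves the ratios almost unchanged, so neither could have altered this count by much. The isoform alternatives could change only Gpr35 and Ffar2, as the other 8 receptors have 1 isoform. Rescaling each file to a common sum (TPM) multiplied all levels alike by 2.33 to 2.35. It raised the receptors at 1 or more to 6, from 3 in FPKM. All other symbols rise alike, and 42.0% of symbols lay at or below a log2 FPKM of -1.25, near the rescaled cut. The 6 of 10 is therefore not read as a difference from all symbols, and the low count at 1 FPKM depends on that cut. In FPKM, the receptors at 1 or more numbered 3 with the highest isoform, with the longest isoform and with depth weights. They numbered 3 to 4 without a replicate and 2 for 1 FPKM in every file. At thresholds of 0.5 and 2 FPKM they numbered 4 and 2, while 43.1% and 54.4% of all symbols lay at or below these thresholds. Receptors at 0 numbered 1 to 2 without a replicate, with Ffar1 added without replicate 1 and Gpbar1 without replicate 2, and 4 were at 0 in at least 1 file. No share of all symbols was taken without a replicate, at 1 FPKM in every file or at 0 in at least 1 file. Those counts are therefore not set against all symbols. The highest isoform lowered Gpr35 to 3.85 FPKM. Without replicate 1 Hcar2 fell to 0.148 FPKM, and without replicate 3 it was 0.519 FPKM. Reading fragments at the longest isoform, an alternative chosen after seeing the data, moved no level by more than its SD. It could change only Gpr35 and Ffar2. Beside the depth-weighted levels, Gpr35 went from 6.572 to 6.573 FPKM and Ffar2 from 1.308 to 1.299 FPKM. Genes that differed between the files numbered 7, 11 at a mean of 10 FPKM or more, 38 when genes with several isoforms were included and 4 to 6 without a replicate; Ffar4, Gpr35 and Ffar2 were not called in that wider test. No paired analysis was possible because there is 1 group.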

Other observations

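Of 75 symbols that begin with Gpr and a number, 18 reached a mean of 1 FPKM and 21 were listed at 0, with a median of 0.244 FPKM. Of all symbols, 51.9% reached that mean and 29.9% were listed at 0. Gpr35 held place 9 among them and Gpr119 place 29. The 3 highest were Gpr108 at 34.2 FPKM, Gpr89 at 22.5 FPKM and Gpr137b at 18.9 FPKM, all of which are known as proteins of internal membranes and not as metabolite receptors of the cell surface. Reads of Gpr137b may be shared with Gpr137b-ps, so its level is uncertain.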
